A study of Mus musculus with 5 samples.

Results

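The ribosomal protein genes of the mouse were followed through the immune cells of kidney and small intestine. Members were taken by name: symbols that begin with Rpl or Rps and a number, together with Rplp0, Rplp1, Rplp2 and Rpsa, leaving out the Rps6k kinases and names that mark pseudogenes, with at least 20 unique molecular identifiers (UMIs, one per tagged mRNA molecule). The rule found 85 of the 31253 genes listed, 50 with large subunit names and 35 with small subunit names. All 85 had a UMI in each of the 4 libraries analysed. Rpl10l (0 UMIs over all barcodes) and Rpl3l (11 UMIs), copies best known from testis and muscle, fell under the minimum, and Rps23rg1 (46 UMIs) and Rpl39l (125 UMIs) lay just inside it. The names alone chose the members, so not every member need encode a subunit protein. Rps19bp1, for example, encodes a protein that binds a ribosomal protein and is not itself part of the subunit.

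Ribosomal proteins join ribosomal RNA in the nucleolus to form the large and the small subunit of the ribosome. Their mRNAs are among the most abundant of lymphocytes, and in mammals many begin with a cytosine followed by a run of pyrimidines, the TOP motif, through which growth signals control their translation as a group. Most members have 1 active gene, but a few have a second, expressed copy. Among these are Rps27l and Rps27rt beside Rps27, Rpl22l1 beside Rpl22 and Rpl36al beside Rpl36a.

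The libraries were made on the BD Rhapsody single-cell system from male mice of 8 to 10 weeks. In unilateral ureteral obstruction (UUO) the left ureter was tied and cut, which injures the kidney, and in sham surgery it was handled but not tied. The 4 groups were wild-type kidney 14 days after UUO, kidney of the strain B6.Cg-Pdcd1tm1.1Shr/J (labelled PD-1 knockout, PD-1 being an inhibitory receptor of lymphocytes encoded by Pdcd1) 3 days after UUO, wild-type small intestine after sham surgery and wild-type small intestine 3 days after UUO. Kidney libraries were sorted as innate lymphoid cells (ILCs) and intestinal ones as group 3 ILCs (ILC3s), the tissue-resident lymphocytes that lack antigen receptors. Each group was 1 library, and how many mice went into it is not stated in the labels. The 2 kidney libraries differ in genotype and in time after surgery, and the effects of the 2 cannot be told apart. With 1 library per group, differences between mice or between library preparations cannot be told apart from those between groups either. A further library, wild-type kidney at day 3 of UUO, was not analysed here. The extraction protocol in the labels names pulmonary artery, which is neither of the organs sampled.

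Between 3501 and 6960 cells per library were kept, with median depths of 1824 to 2177 UMIs. Cells were put into classes by 8 marker genes per class, requiring at least 3 markers with a UMI and at least 2 more than for any other class. The markers did not bear out a pure ILC sort in the kidney, where 46.8% (wild type) and 56.7% (knockout-labelled) of kept cells were T-like, with the T cell receptor genes Cd3e and Trac among the markers. The intestinal libraries were 83.7% (sham) and 78.2% (UUO) ILC3-like. Pdcd1 stood at 127 counts per 1000000 UMIs (CPM) in wild-type kidney and at 190 CPM in the knockout-labelled kidney, and whether the counted part of the mRNA lies inside the deleted part of the gene is not known here, so these levels do not check the label. Of the 40 and 29 kidney cells that passed the ILC3 gate, the leading genes were those of vessel and matrix cells (Sparc and Col4a1, Cldn5 and Cd93), and these cells were left unnamed. The sham and UUO intestinal libraries shared 158 cell barcodes, against 22 to 27 for other pairs that could be compared; 20 of 2931 sham ILC3-like cells and 17 of 3869 UUO ILC3-like cells had such a barcode, but 34 of 115 and 53 of 263 epithelium-like cells did.

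The start sites of members that lead the results are shown first, because the TOP motif is the feature the family is known to share there. RefSeq (GRCm38.p6) gave a promoter window for 65 of the 85 members. A cytosine at the annotated start followed by at least 4 pyrimidines stood in 14 of the 65 (21.5%), against 3.00% of 26994 genes, and a run of at least 8 pyrimidines within 10 bases of the start in 33.8% against 8.70%. The words CCGGAAG (on either strand, the core of sites for ETS factors) and AAGATGG (on either strand, the core of sites for YY1) were found anywhere in the window in 40.0% and 15.4% of members, against 9.92% and 7.28% of all genes, and TATAAA (on either strand) in 10.8% against 15.7%. Each line below gives 50 bases before the annotated start and 20 from it, 5′ to 3′ on the strand of the gene, with capitals for the unbroken pyrimidine run that holds the first base of the annotated start. In Rps27l and Rpl10 that base is a G, so nothing is capitalised, although pyrimidine runs lie nearby in Rps27l.
Rps27, chr3:90213629-90213698, minus strand: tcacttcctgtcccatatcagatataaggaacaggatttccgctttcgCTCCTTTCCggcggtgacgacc
Rps27rt, chr9:114982720-114982789, minus strand: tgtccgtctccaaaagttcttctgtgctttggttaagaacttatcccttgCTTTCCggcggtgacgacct
Rps27l, chr9:66946036-66946105, plus strand: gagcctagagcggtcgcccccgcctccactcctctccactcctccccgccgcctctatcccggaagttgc
Rpl10, chrX:74270766-74270835, plus strand: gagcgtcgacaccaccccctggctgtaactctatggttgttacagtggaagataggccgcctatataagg
Rpl35, chr2:39005112-39005181, minus strand: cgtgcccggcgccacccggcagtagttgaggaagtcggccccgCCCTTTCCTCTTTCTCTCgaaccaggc
Rps10, chr17:27635225-27635294, minus strand: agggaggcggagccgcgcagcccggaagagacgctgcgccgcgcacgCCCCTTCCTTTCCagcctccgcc

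Rps27 on chromosome 3 and its retrogene Rps27rt on chromosome 9 share the 19 bases ctttccggcggtgacgacc at the start and differ upstream of it. The printed window of Rps27 ends with this run, so the match may go on beyond it. Over the last 200 bases of their transcripts they were 88.0% identical, so reads of one could be counted for the other. Rps27l, a copy of Rps27 whose human counterpart is a target of p53, was 56.5% identical to Rps27 there and can be told from it more easily. Rpl36al was 77.5% identical to Rpl36a over the same length. For Rps27l, the RefSeq table held 2 windows, and 1 of them is printed.

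The first question was what part of the mRNA of each cell class the family takes. In wild-type kidney, the family held 10.99% of the UMIs of T-like cells (95% interval 10.96 to 11.02%, 2440 cells), 9.73% of ILC1/NK-like cells (9.68 to 9.78%, 778 cells) and 11.1% of ILC2-like cells (11.05 to 11.18%, 393 cells). In the knockout-labelled kidney the same shares were 12.2% (12.21 to 12.25%, 3947 cells), 10.6% (10.53 to 10.61%, 899 cells) and 11.8% (11.79 to 11.88%, 598 cells). ILC1/NK-like cells, the cytotoxic and type 1 innate cells, were lowest of the 3 in both kidney libraries. ILC3-like cells of the intestine, producers of IL-22, held less: 6.66% after sham surgery (6.64 to 6.68%, 2931 cells) and 5.98% after UUO (5.966 to 5.997%, 3869 cells). These exact binomial intervals, like all intervals below, cover counting error only and not the spread between cells or between animals.

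Other classes were rare in the intestinal libraries and had other levels. The few intestinal ILC2-like cells, the makers of type 2 cytokines, held 13.3% (12.80 to 13.89%, 6 cells, sham) and 12.3% (12.09 to 12.61%, 19 cells, UUO). T-like cells of the intestine stood at 8.38% (21 cells) and 8.14% (38 cells), and ILC1/NK-like cells at 7.43% (17 cells) and 6.90% (11 cells). B-like cells of the kidney, at 10.2% (100 cells) and 10.5% (89 cells), complete the kidney lymphocytes. Epithelium-like cells of the intestine held 6.12% (115 cells) and 4.46% (263 cells). Classes under 100 cells are given as values and were not compared.

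**Figure D1:**
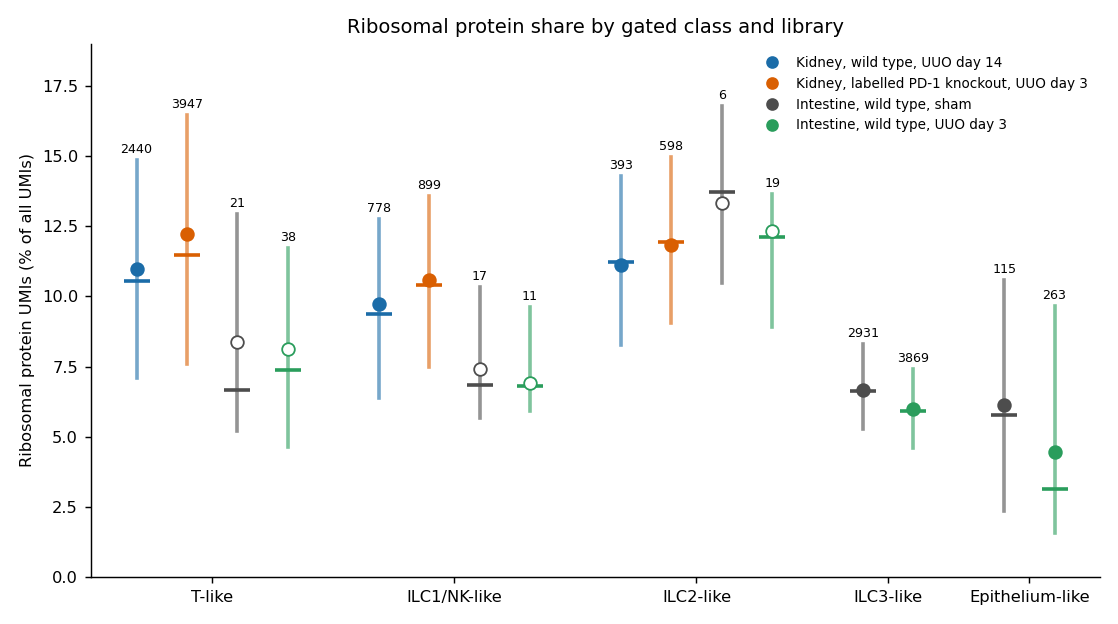
Share of all UMIs that came from the 85 ribosomal protein genes (vertical axis, %) by class and library; circles are summed shares (open under 100 cells), dashes the median cell, lines the 10th to 90th percentile of cells, and numbers the cells. Kidney classes lie between 9.73 and 12.2%, intestinal ILC3-like cells at 6.66 and 5.98%, and the 6 and 19 intestinal ILC2-like cells at 13.3 and 12.3%.

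Cells of 1 class differed far more than counting allows. In wild-type kidney T-like cells the share per cell had an SD of 3.31 percentage points, where sampling at these depths would give 0.775, and the 10th and 90th percentiles of cells were 7.11 and 14.9%. Intestinal ILC3-like cells were tighter, with SDs of 1.26 (sham) and 1.17 (UUO) against 0.568 and 0.537 from sampling. Between classes the 2 subunits kept nearly the same proportion. Summed per class, large subunit genes made up 48.24 to 49.96% of the family's UMIs. This holds for the T-like, ILC1/NK-like, ILC2-like and ILC3-like classes of at least 100 cells. The proportion in single cells is not given here.

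The share also moved with the depth of the cell, and not in 1 direction. With the cells of a class split by depth into 3 groups of equal size, from the shallowest to the deepest, it went from 10.2 to 11.4% in wild-type T-like cells and from 10.5 to 13.3% in knockout-labelled T-like cells. ILC1/NK-like cells went the same way, from 9.01 to 10.3% and from 9.90 to 11.1%. ILC2-like cells went the other way, from 11.5 to 10.9% and from 12.4 to 11.5%, and sham ILC3-like cells from 6.91 to 6.56%. The few cycling ILC2-like cells, with Mki67, Top2a or other cell cycle markers, held 9.27% (9 cells) and 9.48% (33 cells) at median depths of 5501 and 6528 UMIs, against 11.2% and 12.1% in the rest at 2374.5 and 3037 UMIs. Cycling T-like cells held 8.23% (17 cells) and 8.91% (37 cells) against 11.03% and 12.3%. The part of depth in these differences was not tested.

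**Figure D2:**
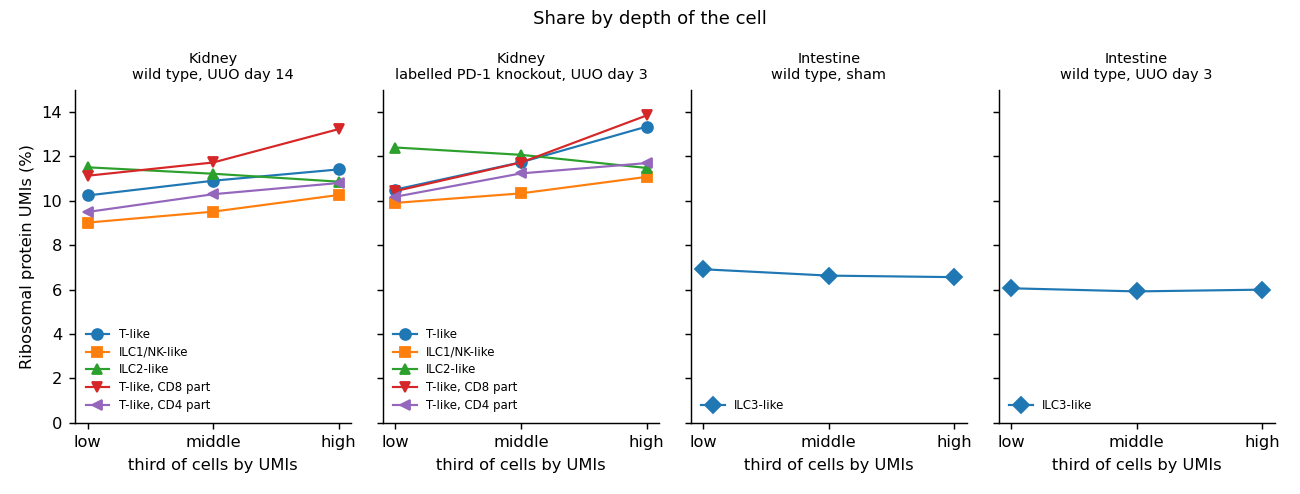
Ribosomal protein share (vertical axis, % of UMIs) in cells of low, middle and high depth of each class (3 groups of equal size), one panel per library, classes of at least 100 cells. T-like cells of the knockout-labelled kidney go from 10.5 to 13.3%, while ILC2-like cells of the same library go from 12.4 to 11.5%.

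Intestinal ILC3-like cells after UUO were compared with those after sham surgery. The family's share was lower after UUO, 5.98 against 6.66%, a log2 ratio of -0.15 (95% interval -0.16 to -0.15). The difference was spread over the family. Of 83 members with at least 100 UMIs in the pair, 79 had a ratio below 0 (49.2% of 9131 genes did), and 68 had an interval wholly below 0 (13.8% of all genes). The median member ratio was -0.16 and that of all genes 0.00. Members with longer annotated transcripts tended to have higher ratios. The Spearman correlation with length was 0.31 over the 83 members and 0.22 over the 76 with at least 1000 UMIs. The part of length in the member ratios was not tested. The exceptions above 0 were Rpl7l1 (0.16), Rpl4 (0.16), Rpl3 (0.04) and Rps19bp1 (0.04), of which Rpl4 alone, a large subunit protein that lines the exit tunnel for the growing chain, had an interval above 0 (0.11 to 0.20, as did 15% of all genes; 1161 CPM after UUO and 1040 CPM after sham).

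A member was said to part from the family where its ratio lay at least 1.5-fold from that of the family total, with its interval clear of it. Here 1 member did, on the lower side, where 6.77% of all genes lay that far and 0.591% that far below. Rps27rt, the retrogene, stood at 39.0 CPM after UUO (35.1 to 43.3) and 69.5 CPM after sham (63.2 to 76.2), a deviation from the family of -0.68 on the log2 scale (interval -0.88 to -0.47). Its parent Rps27, at 2288 and 2599 CPM, deviated by -0.03. Rps27l, at 67.8 and 85.1 CPM, deviated by -0.17, and Rpl22l1, at 68.4 and 69.6 CPM, by 0.13. Mitochondrial transcripts had a log2 ratio of 0.27 and the nuclear RNA Malat1 one of -0.15, and their part in the result was not tested. Without mitochondrial UMIs the family ratio was -0.14.

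Other parts of the translation machinery were split. Of 19 measured genes of a translation list (elongation and initiation factors, ribosome-bound proteins outside the name rule, and others such as Npm1, Hnrnpa1, Nap1l1 and Tpt1), 12 were above 0 and 7 below, with a median of 0.04, and none was past 1.5-fold (4.87% of all genes were). Fau, which encodes a small subunit protein fused to a ubiquitin-like one, was lower (536 against 635 CPM, -0.24), as was the exchange factor Eef1d (-0.29), and the initiation factor Eif3e was higher (0.21). Ribosome biogenesis genes were split too, with 14 of 24 above 0 and 10 below, where 49.2% of all genes were below. Their median was 0.16 and that of all genes 0.00. Among the 4 with the largest ratios, nucleolin (Ncl) stood at 684 against 549 CPM (0.32). Gnl3, the nucleolar GTPase nucleostemin, stood at 91.7 against 72.9 CPM (0.33).

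Epithelium-like cells, added after the data were seen, had the same direction in the same libraries, 4.46% after UUO and 6.12% after sham, a log2 ratio of -0.46 (-0.47 to -0.44). All 78 members with at least 100 UMIs were below 0 there (59.6% of 5254 genes were), and none parted from the family (29.3% of all genes lay that far). The Spearman correlation of their ratios with transcript length was 0.35. Leaving out cells with a barcode found in another library gave -0.38. The gate held different epithelial cells in the 2 libraries: genes of secretory cells (Clca1, Chgb, Tff3) led the sham class, and genes of absorptive and stem cells (Sis, Olfm4) appeared beside them in the UUO class. Their part in the result was not tested.

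The kidney libraries were then compared class by class, the knockout-labelled kidney at day 3 over wild type at day 14. The family's share was higher in the knockout-labelled library in each of the 3 classes, with log2 ratios of 0.15 in T-like (0.15 to 0.16), 0.12 in ILC1/NK-like (0.11 to 0.13) and 0.09 in ILC2-like cells (0.08 to 0.10). Of 83, 80 and 80 members measured, 66, 56 and 58 were above 0, against 45.4, 44.6 and 52.4% of all genes. Intervals wholly above 0 were held by 59, 48 and 41 members (19.6, 11.4 and 15.2% of all genes), and wholly below 0 by 10, 10 and 14 (27.1, 15.7 and 13%). Mitochondrial transcripts moved by 0.18, 0.31 and -0.01 and Malat1 by -0.02, -0.33 and -0.05 in the 3 classes, and their part was not tested.

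T-like cells differed in kind between the 2 libraries. Cells with Cd8a or Cd8b1 and no Cd4 UMI were 28.4% of T-like cells in wild type and 70.4% in the knockout-labelled kidney, cells with Cd4 alone 23.9 and 8.97%, and cells with neither 47.6 and 20.6%. Within the CD8 part the family's share was nearly level, 12.4 against 12.3%, a log2 ratio of 0.02 that turned below 0 when each cell was weighted equally (-0.01) or thinned to 1000 UMIs (-0.01). Within the CD4 part it was 11.2 against 10.3% (0.12, interval 0.10 to 0.13), and within the neither part 11.998 against 10.6%. Both parts were defined after the data were known.

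The list genes of translation were mostly higher in the knockout-labelled kidney too. In T-like cells 18 of 19 were above 0 (median 0.15, all genes -0.04), in ILC1/NK-like 15 of 19 (0.17) and in ILC2-like 17 of 19 (0.13). None was past 1.5-fold in any of the 3, where 14.4, 6.85 and 9.92% of all genes were, in either direction. Npm1, the nucleolar chaperone nucleophosmin, stood at 1482 against 1092 CPM, 1362 against 1042 CPM and 1425 against 1114 CPM, and Rack1, a scaffold of the small subunit, at 1375 against 1085 CPM, 1193 against 912 CPM and 1176 against 959 CPM. Biogenesis genes had medians of 0.18, 0.21 and 0.22, over 24, 15 and 15 genes measured, so the medians rest on different genes. Of these genes 16, 11 and 14 were above 0. Gnl3 had log2 ratios of 0.43, 0.45 and 0.67. Within the CD8 part of T-like cells the translation list was nearer level, with 14 of 19 above 0 (median 0.04, all genes -0.02). Within the CD4 part 16 of 19 were above 0 (0.17, all genes -0.05). Biogenesis medians were 0.06 in the CD8 part (22 genes measured) and 0.15 in the CD4 part (8 genes measured).

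Rps27rt parted from the family in all 3 kidney classes, where 18.2% (T-like), 9.55% (ILC1/NK-like) and 10% (ILC2-like) of all genes lay 1.5-fold or more away, and 3.07, 1.99 and 4.55% that far above. It stood at 154, 131 and 108 CPM in the knockout-labelled library and at 77.4, 63.4 and 59.6 CPM in wild type, deviations from the family of 0.84, 0.93 and 0.76. In each class the counting intervals of the 2 libraries did not overlap. T-like cells held 2 further members past the bound, both with few counts. These were Rps10, a small subunit protein whose gene took 15.7 against 5.93 CPM (127 and 27 UMIs, deviation 1.25), and Rpl36al, with 32.3 against 16.3 CPM (261 and 74 UMIs, 0.84). In ILC2-like cells the other was Rps27l, 89.7 against 51.5 CPM (181 and 51 UMIs, 0.71). With a looser gate its deviation was 0.52, under the bound. The CD8 and CD4 parts hold cells already counted among the T-like cells. Within the CD8 part, Rps27rt (159 against 78.1 CPM, 1.01) and Rps10 (16.3 against 7.25 CPM, 1.15, on 91 and 9 UMIs) parted too, where 9.66% of all genes did. In the CD4 part no member parted (12.8% of all genes did), and Rps27rt lay 0.57 from the family (0.14 to 0.99).

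**Figure D3:**
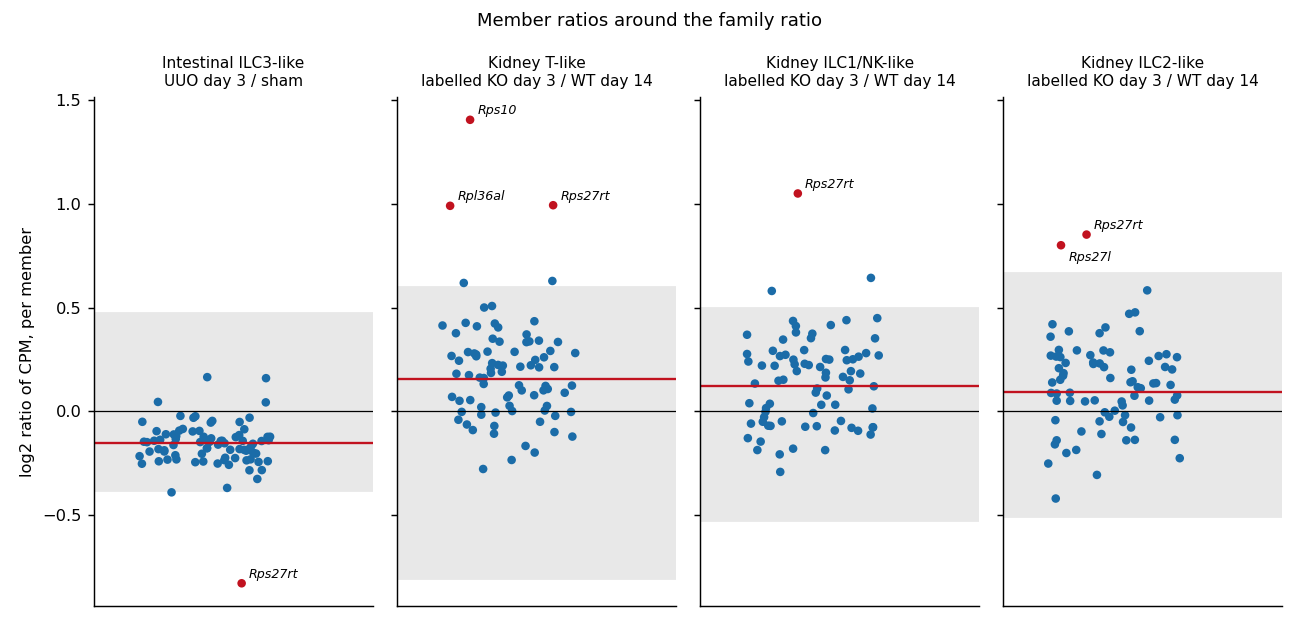
Log2 ratio of CPM for each member with at least 100 UMIs (points; red and named where it parts from the family) in 4 comparisons; the red line is the ratio of the family total, the grey band the 5th to 95th percentile of all genes. In the intestine 79 of 83 points lie below 0, and Rps27rt lies far from the family in all 4 panels.

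The retrogene's place can also be read as its part of the UMIs it shares with its parent, which needs no scaling by depth. Rps27rt took 1.78, 1.63 and 1.52% of the UMIs of the pair in T-like, ILC1/NK-like and ILC2-like cells of wild-type kidney, and 3.49, 3.76 and 3.33% in the knockout-labelled kidney. It took 2.60% (2.37 to 2.85%) in sham ILC3-like cells and 1.68% (1.51 to 1.86%) in UUO ILC3-like cells. Within a kidney library the intervals of the 3 classes overlapped, and between the 2 kidney libraries they did not. The 2 transcripts were 88% identical over their last 200 bases. How the counting divided reads between them is uncertain, and the part of that division in the difference was not tested.

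The 3 kidney classes come from different cells of the same 2 libraries. Of 80 members measured in all 3, 18, Rps27rt among them, lay above the family in each class and 21 below it, with counting intervals clear of the family ratio. Of 4148 genes measured in all 3, 1.93% lay above and 8.41% below by the same rule; genes with more UMIs have narrower intervals, and the genes were not matched on level. Rpl13, of the large subunit, deviated by 0.35 in T-like, 0.32 in ILC1/NK-like and 0.39 in ILC2-like cells; its levels were 924, 883 and 911 CPM in the knockout-labelled library and 653, 653 and 654 CPM in wild type. On the other side stood Rps16, with deviations of -0.32, -0.41 and -0.51 and levels of 1902, 1509 and 1491 CPM against 2137, 1849 and 1998 CPM. Rpl15 (-0.43, -0.33 and -0.32), Rps21 (-0.28, -0.31 and -0.29) and Rpl9 (-0.26, -0.30 and -0.28) did likewise. Both sides held members of both subunits.

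Within each kidney library, ILC1/NK-like cells were compared with T-like cells. The family's share was lower in ILC1/NK-like cells by log2 ratios of -0.18 (wild type, -0.18 to -0.17) and -0.21 (knockout-labelled, -0.22 to -0.20), with 73 of 80 and 77 of 82 members below 0 (54.5% of all genes in each library). Rpl10 went against the family. Its product joins the large subunit late, in the cytoplasm, and is needed for the subunits to meet. Rpl10 stood at 699 CPM in ILC1/NK-like and 509 CPM in T-like cells of wild type, and at 856 and 642 CPM in the knockout-labelled kidney, deviations of 0.63 (0.53 to 0.74) and 0.62 (0.55 to 0.70). It was the only member to part in both libraries, where 22.4 and 20.6% of all genes lay as far.

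Rps27l parted in wild type only by this bound, at 88.6 CPM in ILC1/NK-like and 56.3 CPM in T-like cells (0.83), and deviated by 0.55 in the knockout-labelled kidney (90.5 and 71.2 CPM, interval 0.31 to 0.79); the difference between the 2 libraries was not tested. Rps19, which is mutated in Diamond-Blackfan anaemia, was lowest against the family in both, at -0.39 and -0.28. Translation list genes were below 0 in 13 and 15 of 19, against 54.5% of all genes in each library. Biogenesis genes were below 0 in 9 of 21 and 13 of 24.

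ILC2-like and T-like cells of the same library had nearly the same share, with log2 ratios of 0.02 (0.01 to 0.03) in wild type and -0.05 (-0.05 to -0.04) in the knockout-labelled kidney. The sign in the knockout-labelled kidney turned above 0 in 3 of the alternatives, and in wild type it turned below 0 with a stricter gate. No member parted in either library, where 34.8 and 34.4% of all genes lay that far. Within that bound, the stalk protein Rplp1 (0.35 and 0.40) and Rpl35 (0.31 and 0.45) were on the ILC2-like side in both, and Rpl13a (-0.40 and -0.30) and Rps27rt (-0.39, with an interval that reaches 0.01, and -0.47) on the T-like side.

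Sham ILC3-like cells were set against wild-type kidney classes, contrasts that share the sham library and in which organ, cell class and surgery differ together and cannot be told apart. The family's share was 6.66% against 11.1% in ILC2-like (log2 ratio -0.74, interval -0.75 to -0.73) and 10.99% in T-like cells (-0.72, -0.73 to -0.72). Of 81 and 82 members, 75 and 76 were below 0, against 37.8 and 52.8% of all genes. The translation list lay below 0 in 17 and 18 of 19 and the biogenesis list in 19 of 20 and 20 of 22. Eef1b2, an exchange factor for the elongation factor eEF1A, stood at 592 CPM against 1383 and 1376 CPM, Npm1 at 518 CPM against 1114 and 1092 CPM, and Ncl at 549 CPM against 997 and 992 CPM. Mitochondrial transcripts had log2 ratios of -0.65 and -0.64 and Malat1 of 0.80 and 0.46, and their part was not tested.

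Here 13 and 15 members parted, the most among the comparisons between lymphocyte classes, in a contrast where 72.6 and 61.8% of all genes lay 1.5-fold or more from the family ratio. Of the 13 and 15, 9 and 10 lay above the family (68.5 and 54.2% of all genes did) and 4 and 5 below it (4.09 and 7.6%). Rpl10 was not lower in the sham ILC3-like class taken as a whole. It stood at 726 CPM in sham ILC3-like cells against 665 CPM in ILC2-like and 509 CPM in T-like cells, deviations of 0.87 and 1.23. For Rps27l the level in sham ILC3-like cells was near that of wild-type kidney ILC1/NK-like cells given above. Against the ILC2-like and T-like cells Rps27l was higher outright, 85.1 CPM against 51.5 and 56.3 CPM, deviations of 1.46 and 1.32. The copies Rpl36al (26.3 CPM against 16.2 and 16.3 CPM; on 169, 16 and 74 UMIs) and Rpl7l1 (53.0 CPM against 46.5 and 42.6 CPM) lay on the same side. So did Rps15, Rpl26 and Rpl27a in both contrasts, with deviations between 0.59 and 0.86.

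Further down than the family lay Rpl35, which sits at the tunnel exit (162 CPM in sham ILC3-like against 586 CPM in ILC2-like and 468 CPM in T-like cells, deviations of -1.11 and -0.80). Rps6, the small subunit protein phosphorylated by S6 kinases, did likewise (162 CPM against 476 and 448 CPM, -0.82 and -0.75). Rpl23a took 13.6 CPM against 48.5 and 53.4 CPM, on 87, 48 and 243 UMIs; many near-identical copies of Rpl23a lie in the genome, as for Rpl13a and Rps10, so the low counts of these 3 members are uncertain. Rpl15, Rpl12 and Rpsa also lay below the family in both contrasts. Rpl15 deviated by -0.76 against ILC2-like and -0.53 against T-like cells, Rpl12 by -0.44 and -0.71, and Rpsa by -0.47 and -0.60. Each passed the bound in 1 of the contrasts, and the difference between the 2 contrasts was not tested.

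**Figure D4:**
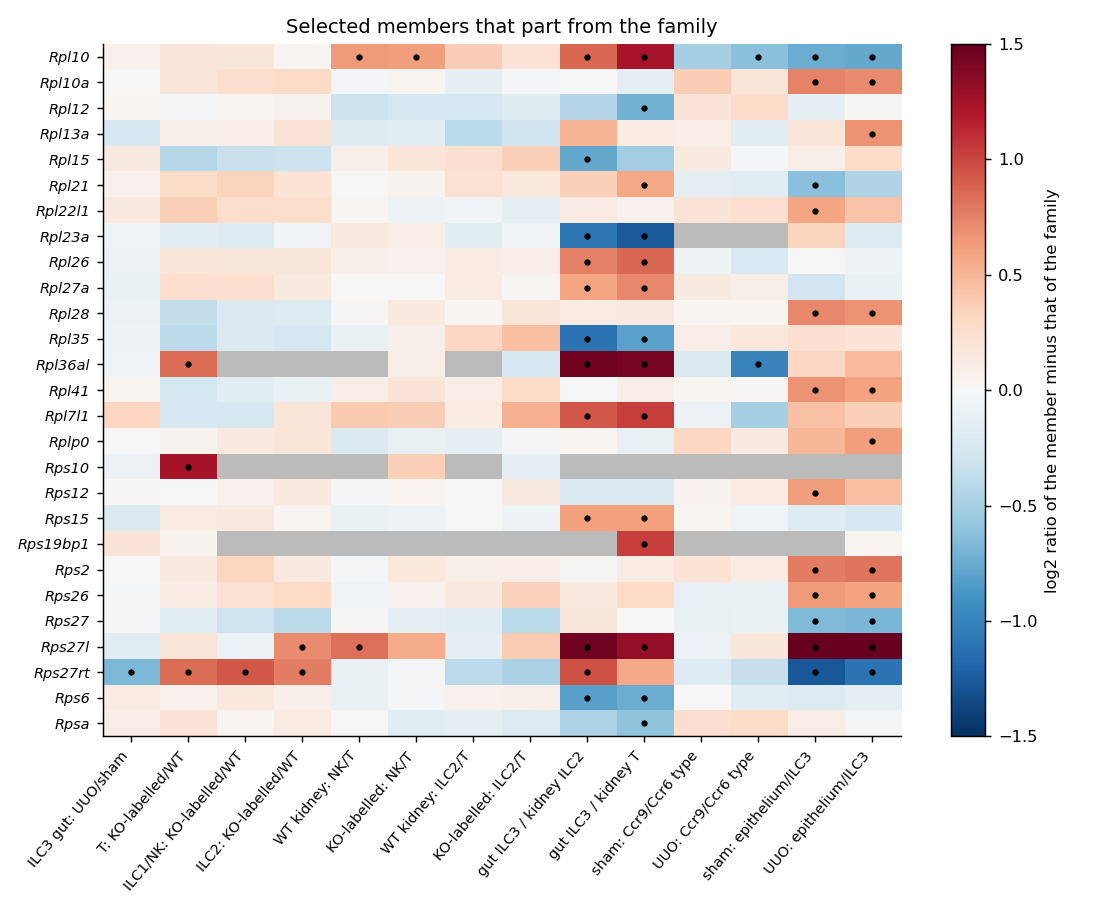
Deviation of selected parting members from the family (colour, log2 ratio of the member minus that of the family total) in 14 comparisons (columns, first group over second); black dots mark members that part, grey cells hold under 100 UMIs. Rpl10 and Rps27l are red in the 2 columns of sham ILC3-like over kidney cells, Rps27rt in the 3 kidney library columns, and the epithelial columns hold 12 and 11 dots.

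Inside the ILC3-like class, Ccr9-type cells (with genes such as Ncr1, Klrb1c and Tbx21, of the type that makes interferon) were compared with Ccr6-type cells (with Cd4, Nrp1 and Cxcr5, of the lymphoid tissue inducer type). The family's share was higher in Ccr9-type cells by 0.05 in both libraries (0.04 to 0.06 in each). Rpl10 again left the family, now downward: 582 CPM in Ccr9-type against 798 CPM in Ccr6-type cells after sham (deviation -0.50, -0.62 to -0.39) and 510 CPM against 763 CPM after UUO (-0.63, -0.73 to -0.52). Only the second passed the bound, where 16.1% of all genes did (16.4% in sham), and the difference between the 2 libraries was not tested. Rpl36al parted after UUO (13.6 against 26.4 CPM, on 27 and 115 UMIs, -1.0), but not after sham (23.9 against 26.9 CPM). Rpsa lay above the family in both, by 0.25 and 0.27.

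Ordered by level, Rpl10 was highest in the knockout-labelled kidney's ILC1/NK-like cells (856 CPM, 817 to 896) and in sham Ccr6-type cells (798 CPM, 765 to 832), whose intervals overlap. UUO Ccr6-type cells (763 CPM), ILC2-like cells of the knockout-labelled kidney (720 CPM), and ILC1/NK-like (699 CPM) and ILC2-like cells (665 CPM) of wild-type kidney followed, each overlapping the next. T-like cells of the knockout-labelled kidney stood at 642 CPM (624 to 660) and sham Ccr9-type cells at 582 CPM (543 to 624). UUO Ccr9-type cells (510 CPM) and wild-type kidney T-like cells (509 CPM) could not be told apart, and the epithelium-like cells, at 397 and 297 CPM, were lowest.

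Epithelium-like cells were set against the ILC3-like cells of their own intestinal library, a contrast added after the data were seen. The family's share was lower in epithelium-like cells, by log2 ratios of -0.12 after sham (-0.13 to -0.11) and -0.42 after UUO (-0.43 to -0.41). With the median of the other genes set to 0 these were 0.18 and -0.05, so the sign after sham depends on the scaling. The clearest member was Rps27l, at 243 CPM in epithelium-like and 85.1 CPM in ILC3-like cells after sham, and at 175 and 67.8 CPM after UUO. It deviated from the family by 1.64 (1.40 to 1.87) and 1.79 (1.61 to 1.97), and by 1.51 (81 epithelium-like cells left) and 1.66 (208 left) without the cells whose barcode was found in another library. As a part of the UMIs it shares with Rps27, it was 13.8 and 14.2% in epithelium-like cells, 3.17 and 2.88% in ILC3-like cells and 1.299 to 2.79% in the kidney classes.

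In these contrasts 12 and 11 members parted, where 60.8 and 65.7% of all genes lay as far. Of the members, 9 parted in both libraries and in the same direction (75 and 81.8% of the 2 lists). The same overlap over all genes was not computed, so that of the members has nothing to be set against. In every alternative run, 5 of the 12 (Rpl10, Rpl41, Rps2, Rps26 and Rps27l) and 5 of the 11 (Rpl10, Rpl28, Rps2, Rps27 and Rps27l) parted. After sham, thinning cells to 1000 UMIs took the deviation of Rpl10a from 0.75 to 0.37 and that of Rpl28 from 0.72 to 0.41. Of these members 8 and 8 lay above the family (26.8 and 34.8% of all genes) and 4 and 3 below it (34 and 30.9%). Besides Rps27l, the 9 were Rps2, Rpl10a, Rpl28, Rpl41 and Rps26 on the epithelial side and Rps27, Rpl10 and Rps27rt on the ILC3 side. Rps27 stood at 1514 against 2599 CPM and at 1058 against 2288 CPM, so that parent and copy lay on opposite sides. Rpl10 stood at 397 against 726 CPM and at 297 against 679 CPM. Rps2, a protein of the small subunit near the mRNA entry, was higher outright, 948 against 604 CPM and 705 against 540 CPM. Mitochondrial transcripts were higher in epithelium-like cells by 1.25 and 1.11 on the log2 scale. Epithelium-like cells had a UMI for a median of 3 of the 8 ILC3 markers, against 6 in ILC3-like cells, and doublets were not removed; their part in the result was not tested.

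**Figure D5:**
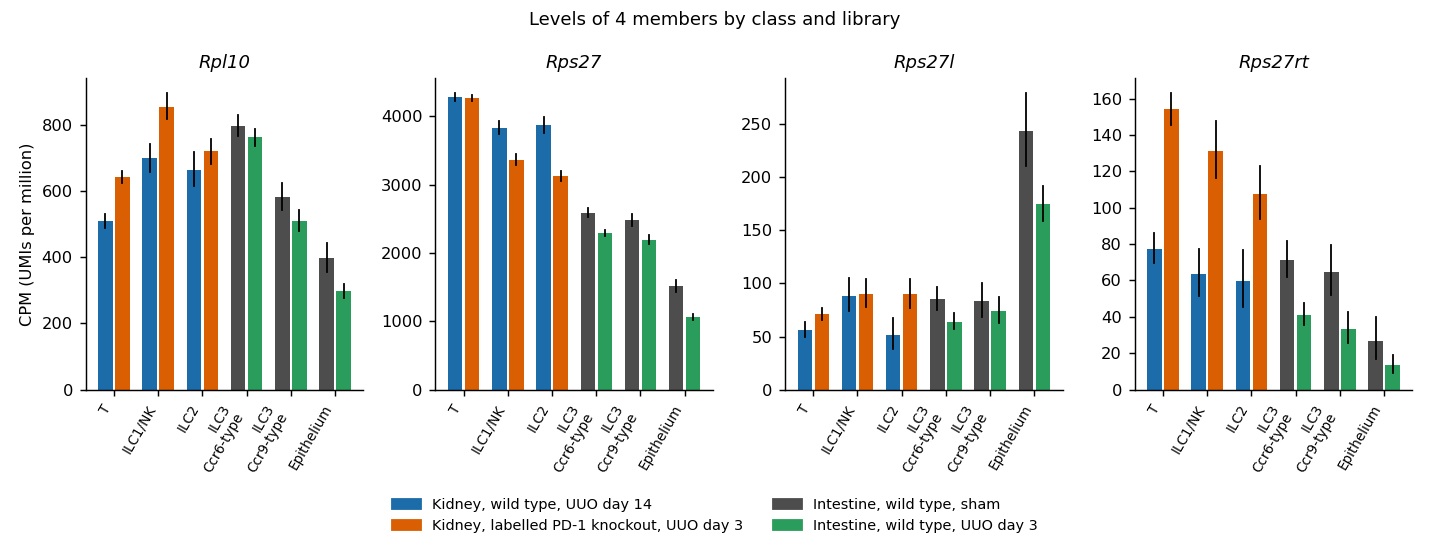
CPM of Rpl10, Rps27, Rps27l and Rps27rt (vertical axes, separate scales from 0) by class and library, with exact Poisson 95% intervals as black lines. Rps27l stands at 243 and 175 CPM in the 2 epithelium-like classes and between 51.5 and 90.5 CPM elsewhere, while Rps27 is lowest there, at 1514 and 1058 CPM.

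The other copies are given as their part of the pair. Rpl22l1, the partner of Rpl22, whose loss in mice blocks the development of T cells with alpha-beta receptors, took 14.1, 13.9 and 13.5% of the pair's UMIs in the 3 wild-type kidney classes and 17.1, 15.01 and 15.3% in the knockout-labelled ones. It took 10.3 and 11.1% in sham and UUO ILC3-like cells and 14.5 and 14.0% in epithelium-like cells. Rpl7l1 took 6.08 and 7.59% of its pair with Rpl7 in ILC3-like cells and 2.98 to 4.49% in kidney classes. Rpl36al took 5.19 and 4.97% of its pair in ILC3-like cells and 1.34 to 3.10% in the kidney. Rpl39l, known from testis, had at most 49 UMIs in a class, under 0.4% of its pair, where free RNA cannot be told from expression. UMIs were not scaled by transcript length, so these shares compare classes and not the 2 genes of a pair.

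Over the 17 comparisons, 28 of the 83 members measured in at least 1 comparison parted somewhere. In single comparisons 6.77 to 72.6% of all genes lay as far, and the share over all 17 was not computed. Many of the comparisons share cells or a library, so these counts are not independent. Rps27rt parted in 8 (5 above the family, 3 below), Rpl10 in 7 (4 above, 3 below) and Rps27l in 6, above the family each time. For the remaining members measured, no comparison passed the bound.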

How the data were processed

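Single-cell RNA was measured with BD Rhapsody in 4 libraries, 1 per group, so no test between conditions was possible. The authors deposited raw UMI counts per gene and cell barcode. CASAVA 1.8, UMI-tools and Seurat, with the build mm10, appear in the submitters' processing notes, whereas aligner and gene models were not given in the sources used here. Totals were 8717372 to 16466027 UMIs. Cells with at least 500 UMIs, 250 genes and at most 20% mitochondrial UMIs were kept, without a doublet caller. Counts were summed per class and library and scaled to CPM. Ratios have exact conditional binomial, shares exact Clopper-Pearson and levels exact Poisson 95% intervals, covering counting error only. PCR spread and the spread between cells and between animals are not in them. Genes needed 100 UMIs in a pair of classes of at least 100 cells. By rule the text names, per comparison, up to 5 members with the highest and 5 with the lowest deviation, the copies with their parents, and up to 4 genes of each pathway list; other members were named after their values were seen, for parting or for showing the same sign in several comparisons. Members and lists were chosen with earlier results of these data known; the CD4, CD8 and epithelial comparisons were added after seeing the data. Scripts (python 3.11.15, numpy 2.4.6, scipy 1.17.1, pandas 2.3.3) were tested on simulated data. Promoter windows came from RefSeq (GRCm38.p6). Results of some members are not reported here, and they stay in the counts over the family.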

Additional observations from a re-analysis of the deposited data

How the results depend on the processing

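Alternatives changed 1 choice at a time. Over 63 named gene deviations, 592 of 619 recomputed values kept their call, 27 no longer passed the 1.5-fold bound or its interval, and 0 changed sign. Of the parting members, Rps27rt passed in every alternative run in intestinal ILC3-like, kidney T-like and kidney ILC1/NK-like cells, and Rpl10 in both ILC1/NK-like to T-like comparisons. In kidney ILC2-like cells Rps27rt parted in all 9 alternatives that measured it (0.66 to 0.85) and Rps27l in 8 of 9; both had under 100 UMIs when thinned. No paired analysis was possible because each group is 1 library. Depth limits members with few UMIs (Rps10, Rpl36al, Rpl23a) and classes under 100 cells. Thinning left out 269 to 577 cells per library. All family values below are log2 ratios, and the cause of each move was not tested.

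Intestinal ILC3-like cells, UUO against sham (-0.15), gave -0.14 without mitochondrial UMIs, -0.16 with the median of other genes set to 0 and -0.17 as a mean of shares per cell, and 2 parting members when thinned to 1000 UMIs. Knockout-labelled against wild-type T-like cells (0.15) gave 0.14 with at most 10% mitochondrial UMIs, 0.13 with the stricter gate, 0.16 without mitochondrial UMIs, 0.20 with the median set to 0, 0.12 as a mean per cell and 0.12 thinned, with 5 parting members when pseudogene names were kept. ILC1/NK-like cells (0.12) gave 0.11 with the looser gate, which had 2 parting members, 0.14 without mitochondrial UMIs and 0.17 with the median set to 0. ILC2-like cells (0.09) gave 0.10 with the stricter gate and 0.0748 with the median set to 0, with 1 parting member under the looser gate and 0 when thinned.

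ILC1/NK-like against T-like cells of wild type (-0.18) gave -0.20 (stricter gate), -0.16 (looser gate), -0.19 (without mitochondrial UMIs), -0.14 (median set to 0), -0.19 (mean per cell) and -0.19 (thinned). The same contrast in the knockout-labelled kidney (-0.21) gave -0.20 (at most 10% mitochondrial), -0.18 (median set to 0), -0.18 (mean per cell) and -0.19 (thinned), with 2 parting members under the stricter gate, the looser gate and with pseudogene names kept. ILC2-like against T-like cells of wild type (0.02) turned to -0.00867 with the stricter gate and gave 0.0296 (looser gate), 0.28 (median set to 0), 0.0498 (mean per cell) and 0.0471 (thinned). In the knockout-labelled kidney (-0.05) it turned to 0.13 (median set to 0), 0.0229 (mean per cell) and 0.0234 (thinned, with 1 parting member), and gave -0.0407 (at most 10% mitochondrial), -0.0363 (stricter gate), -0.0356 (looser gate) and -0.0580 (without mitochondrial UMIs).

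Sham ILC3-like against kidney ILC2-like cells (-0.74) gave -0.77 (without mitochondrial UMIs), -0.99 (median set to 0) and -0.75 (thinned). Against T-like cells (-0.72) it gave -0.75 (stricter gate), -0.71 (looser gate), -0.75 (without mitochondrial UMIs), -0.68 (median set to 0), -0.70 (mean per cell) and -0.71 (thinned). Ccr9-type against Ccr6-type cells (0.05 in both libraries) gave 0.0780 and 0.0768 with the median set to 0, and 1 parting member after UUO when thinned.

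The CD8 part (0.02) gave 0.00695 (stricter gate), 0.0314 (without mitochondrial UMIs) and 0.0410 (median set to 0), and turned to -0.00783 as a mean per cell and -0.00641 thinned. The CD4 part (0.12) gave 0.13 (without mitochondrial UMIs) and 0.17 (median set to 0). Epithelium-like cells, UUO against sham (-0.46), gave -0.49 (no cell filter), -0.43 (at most 10% mitochondrial), -0.32 (stricter gate), -0.43 (looser gate), -0.36 (median set to 0), -0.44 (mean per cell) and -0.38 (without shared barcodes). Epithelium-like against ILC3-like cells after sham (-0.12) turned to 0.18 with the median set to 0 and gave -0.17 (no cell filter), -0.15 (stricter gate), -0.20 (looser gate), -0.0524 (without mitochondrial UMIs), -0.0916 (mean per cell), -0.14 (thinned) and -0.14 (without shared barcodes). After UUO (-0.42) it gave -0.50 (no cell filter), -0.39 (at most 10% mitochondrial), -0.32 (stricter gate), -0.48 (looser gate), -0.35 (without mitochondrial UMIs), -0.0531 (median set to 0), -0.36 (mean per cell), -0.44 (thinned) and -0.37 (without shared barcodes).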
